A study of Sus scrofa with 18 samples.

Results

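The circular muscle (CM) of the pig uterus on day 12 of pregnancy was compared with that of cyclic gilts, taken on day 15 of their cycle. The members are the 6 CM libraries of these states, GD12M_CM and CD15M_CM with 3 libraries each, out of 18 libraries in the series, and 14314 of the 24358 genes in the table reached 1 TPM in at least 3 of the 6. TPM is the abundance of a transcript relative to all transcripts of its library. The series holds RNA-seq of CM and of the outer longitudinal muscle (LM) from 9 Yorkshire gilts, cut on the mesometrial side of the horns, in 3 states of 3 gilts each, with both layers taken from each gilt. GD12M_CM came from gilts mated at their second estrus that carried conceptuses on day 12, before implantation, and CD15M_CM from cyclic gilts on day 15. Day and pregnancy therefore differ together between these groups and cannot be told apart. The third CM group, GD15M_CM, is from day 15 of pregnancy and is given beside the others for reference. The endometrium was cut away with scalpels before the layers were separated. One library stands for 1 gilt, so n = 3 gilts in each group below, and the 3 values given for a group are those of its replicates 1 to 3.

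The myometrium is the muscular wall of the uterus, and its inner circular layer lies against the endometrium. In pigs the conceptuses elongate, signal to the uterus and space themselves along the horns before they attach, and the quiescence or contraction of this muscle is set by progesterone, estrogens, prostaglandins and relaxin. In a cyclic gilt at the end of the luteal phase the corpora lutea are about to regress.

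The 6 libraries were rich in smooth muscle transcripts and also held transcripts of the lining epithelium. Between 16786 and 16958 genes were above 0 in each. MYH11, which encodes the myosin heavy chain of smooth muscle, was at 1702, 1929 and 985 TPM in GD12M_CM and 2365, 3448 and 1777 TPM in CD15M_CM, and the muscle intermediate filament gene DES was at 3864, 6415 and 2544 TPM in GD12M_CM and 3226, 4403 and 2897 TPM in CD15M_CM. The epithelial adhesion gene EPCAM was at 83.9, 32.6 and 91.6 TPM in GD12M_CM and 110.4, 51.8 and 75.4 TPM in CD15M_CM. The 13 genes of the epithelial list summed to between 1172 and 2112 TPM in GD12M_CM and between 1619.5 and 3048 TPM in CD15M_CM, with CLDN7 below 1 TPM throughout, so the groups overlapped. The 5 erythrocyte genes were lower in 2 of the 3 day 12 libraries than in any cyclic library. They summed to between 59.98 and 358 TPM in GD12M_CM and between 329.9 and 1219.8 TPM in CD15M_CM, and SLC4A1 was below 1 TPM in both. The part of blood in the results below was not tested. In tissue libraries fewer cells of a type and less RNA per cell cannot be told apart.

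Fold changes below are log2 differences, GD12M_CM minus CD15M_CM, on log2(TPM + 1), so a negative value is lower on day 12 of pregnancy. A gene passed at an adjusted p below 0.05 and an absolute log2 difference above 1 in limma. Of the 14314 genes tested, 35 passed (0.245%). Expression was higher on day 12 of pregnancy in 12 of them (0.0838% of genes tested) and lower in 23 (0.161%), and in all 35 the highest library of one group lay below the lowest of the other. By comparison, groups without overlap were found in 8.04% of all genes with day 12 higher and in 22.6% with day 12 lower. The median over all genes was -0.11, and scaling the libraries by the median ratio brought it to 0.01 with 12 genes higher and 15 lower (17 and 17 after quantile normalization), so a difference near -0.11 is that of the typical gene.

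**Figure D1:**
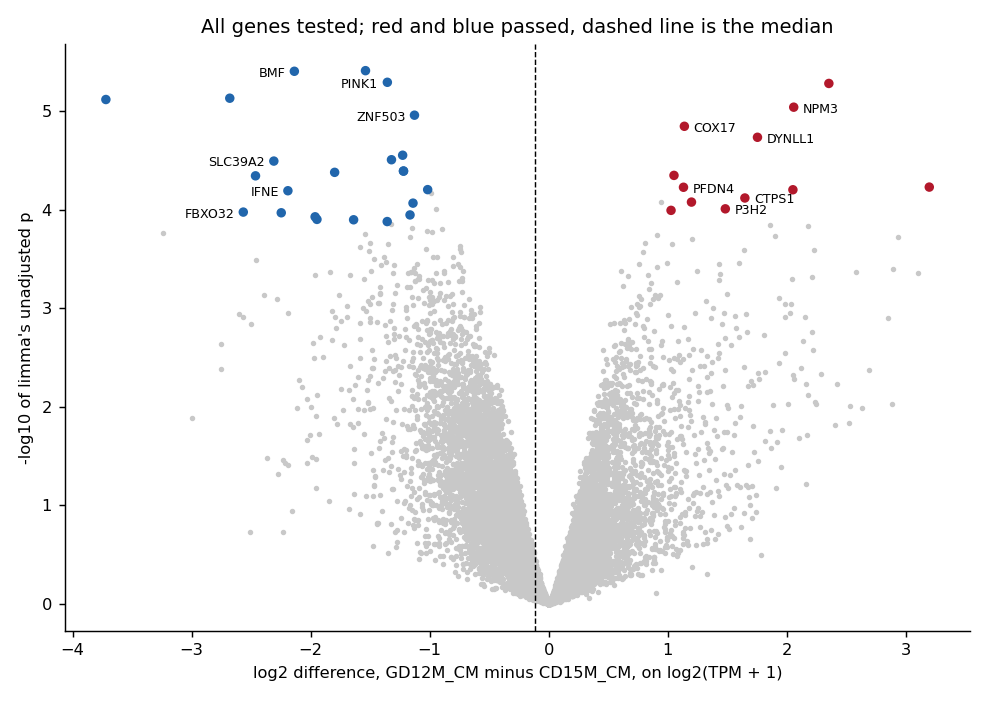
Each point is 1 of the 14314 genes tested, with the log2 difference between GD12M_CM and CD15M_CM on the x axis and the unadjusted p of limma as its -log10 on the y axis. The 12 red and 23 blue points passed, higher and lower on day 12 of pregnancy, and the dashed line at -0.11 is the median of all genes.

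The count of 35 depended on single libraries. It was 0 without GD12M_CM replicate 1 or CD15M_CM replicate 3, 1 without GD12M_CM replicate 2 or CD15M_CM replicate 2, 5 without GD12M_CM replicate 3, 19 without CD15M_CM replicate 1, and 18, 65 or 72 without GD15M_CM replicate 3, 2 or 1, which enter through the shared estimate of the spread. At an unadjusted p below 0.05 the first pair of fits held 547 and 551 genes higher and 1341 and 1269 lower. For the 20 passing genes that the naming rule picked, all 440 values under the alternatives kept their direction and lay between 58.4% and 123% of the values given here. These genes were picked for groups without overlap, so leaving out a library could not turn their direction. Some alternatives, such as the fit without a variance trend, alter only the spread and leave the differences as they are. The kept direction is therefore no measure of stability.

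The genes that rose on day 12 of pregnancy included several of nucleolar, protein folding and biosynthetic function. NPM3, a nucleoplasmin family chaperone of the nucleolus, was at 55.8, 58.6 and 38.3 TPM in GD12M_CM and 13.6, 10.9 and 9.65 TPM in CD15M_CM (2.06 ± 0.24 (SE), adjusted p = 0.019; ENSSSCG00000010568, chromosome 14, 112819390 to 112822244 in Sscrofa11.1). Its lowest library on day 12 was far above the highest of the cycle, and GD15M_CM, at 14.9, 14.6 and 22.7 TPM, lay nearer to the cyclic level. CTPS1, which makes CTP for nucleic acid synthesis, was at 23.1, 27.99 and 16.4 TPM in GD12M_CM and 7.08, 6.92 and 5.197 TPM in CD15M_CM (1.65 ± 0.25 (SE), adjusted p = 0.044; ENSSSCG00000003973, chromosome 6, 170201749 to 170233105). The groups stood well apart although GD12M_CM spread over a wider range than CD15M_CM. PFDN4, a subunit of the prefoldin chaperone, was at 37.99, 33.1 and 41.1 TPM in GD12M_CM and 14.2, 16.8 and 18.7 TPM in CD15M_CM (1.13 ± 0.16 (SE), adjusted p = 0.04). MANF, a protein of the endoplasmic reticulum that is induced when proteins misfold there, was at 122, 118 and 113 TPM in GD12M_CM and 60.9, 49.8 and 61.9 TPM in CD15M_CM (1.03 ± 0.16 (SE), adjusted p = 0.047). The libraries of MANF agreed closely within each group.

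DYNLL1 stood high in the day 12 libraries alone. This light chain of the dynein motor, which also binds many other proteins, was at 70.5, 79.8 and 59.4 TPM in GD12M_CM and 18.03, 19.4 and 22.6 TPM in CD15M_CM (1.75 ± 0.22 (SE), adjusted p = 0.027; ENSSSCG00000009904, chromosome 14, 40455954 to 40458352). GD15M_CM was at 17.4, 13.7 and 9.59 TPM, so 3 libraries were high and the other 6 low. COX17, the copper chaperone for cytochrome c oxidase, was at 274, 253 and 249 TPM in GD12M_CM and 107, 121 and 122 TPM in CD15M_CM (1.14 ± 0.14 (SE), adjusted p = 0.023), and GD15M_CM lay between them at 174, 147 and 193 TPM. P3H2, a collagen prolyl hydroxylase, was at 140.2, 146 and 80.5 TPM in GD12M_CM and 37.1, 44.6 and 43.6 TPM in CD15M_CM (1.48 ± 0.23 (SE), adjusted p = 0.047). The remaining places of the rule for named genes went to 3 genes that did not pass. The electron carrier CYCS missed only the size limit (0.94 ± 0.14 (SE), adjusted p = 0.044), and the scaffold protein PDZK1 (1.86 ± 0.30 (SE), adjusted p = 0.051) and the glycolytic enzyme HK2 (2.17 ± 0.36 (SE), adjusted p = 0.052) missed the adjusted p.

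Among the genes that fell, a group is known for atrophy, cell death and the quality control of mitochondria. FBXO32 (atrogin-1), a ubiquitin ligase subunit known from muscle wasting, was at 14.3, 6.64 and 10.9 TPM in GD12M_CM and 98.9, 66.4 and 41.9 TPM in CD15M_CM (-2.57 ± 0.40 (SE), adjusted p = 0.047; ENSSSCG00000005981, chromosome 4, 15895875 to 15925929). The cyclic libraries spread widely, and even the lowest of them was well above day 12. BMF, which promotes apoptosis by binding BCL2 family proteins, was at 3.83, 3.76 and 5.33 TPM in GD12M_CM and 26.4, 23.5 and 17.4 TPM in CD15M_CM (-2.14 ± 0.22 (SE), adjusted p = 0.018; ENSSSCG00000035284, chromosome 1, 131178021 to 131199668). GD15M_CM held 12.2, 16.7 and 15.7 TPM of BMF, all above day 12 and below the lowest cyclic library. PINK1, the kinase that marks damaged mitochondria for removal, was at 38.6, 34.3 and 33.8 TPM in GD12M_CM and 83.8, 93.7 and 100.5 TPM in CD15M_CM (-1.36 ± 0.15 (SE), adjusted p = 0.018; ENSSSCG00000003506, chromosome 6, 78863195 to 78884663). Both groups were tight, and GD15M_CM was at 60.8, 75.4 and 78.5 TPM.

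Other genes that fell were PIK3IP1, HDAC9, IFNE and SLC39A2. PIK3IP1, an inhibitor of phosphoinositide 3-kinase, was at 31.2, 17.3 and 28.6 TPM in GD12M_CM and 57.8, 83.3 and 105 TPM in CD15M_CM (-1.64 ± 0.26 (SE), adjusted p = 0.049). HDAC9, a class IIa histone deacetylase, was at 4.09, 3.102 and 3.05 TPM in GD12M_CM and 10.54, 8.28 and 12.3 TPM in CD15M_CM (-1.36 ± 0.22 (SE), adjusted p = 0.0499), and GD15M_CM matched the day 12 range with 3.2, 3.56 and 3.56 TPM. IFNE, interferon epsilon, which in mice is made by the epithelium of the reproductive tract without infection, was at 1.37, 1.36 and 2.202 TPM in GD12M_CM and 7.17, 11.3 and 16.1 TPM in CD15M_CM (-2.19 ± 0.32 (SE), adjusted p = 0.04). The day 12 values are low, and GD15M_CM, at 13.4, 14.99 and 8.34 TPM, lay within the cyclic range. SLC39A2, a zinc importer, was at 102, 109.7 and 189.5 TPM in GD12M_CM and 493, 716 and 749.5 TPM in CD15M_CM (-2.31 ± 0.31 (SE), adjusted p = 0.036; ENSSSCG00000029754, chromosome 7, 78127628 to 78132900). GD15M_CM had the highest level of SLC39A2 at 1003, 1532 and 783 TPM, so the 3 day 12 libraries were the lowest of the 9.

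The other genes of the rule were RFTN2, a raftlin family gene (-1.32 ± 0.18 (SE), adjusted p = 0.036), TCP11L2 (-1.95 ± 0.31 (SE), adjusted p = 0.049) and DENND11 (-1.96 ± 0.31 (SE), adjusted p = 0.048), all lower on day 12 of pregnancy. A further 6 genes with a symbol fell, named here after their values were seen. They were ARRDC3, an alpha-arrestin that regulates beta-adrenergic receptors (-1.23), PDK2, a kinase that inhibits pyruvate dehydrogenase (-1.22), SUN2 of the inner nuclear membrane (-1.02), the myelin protein gene MBP (-1.22), FBXO45 (-1.17) and ZNF503 (-1.13).

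**Figure D2:**
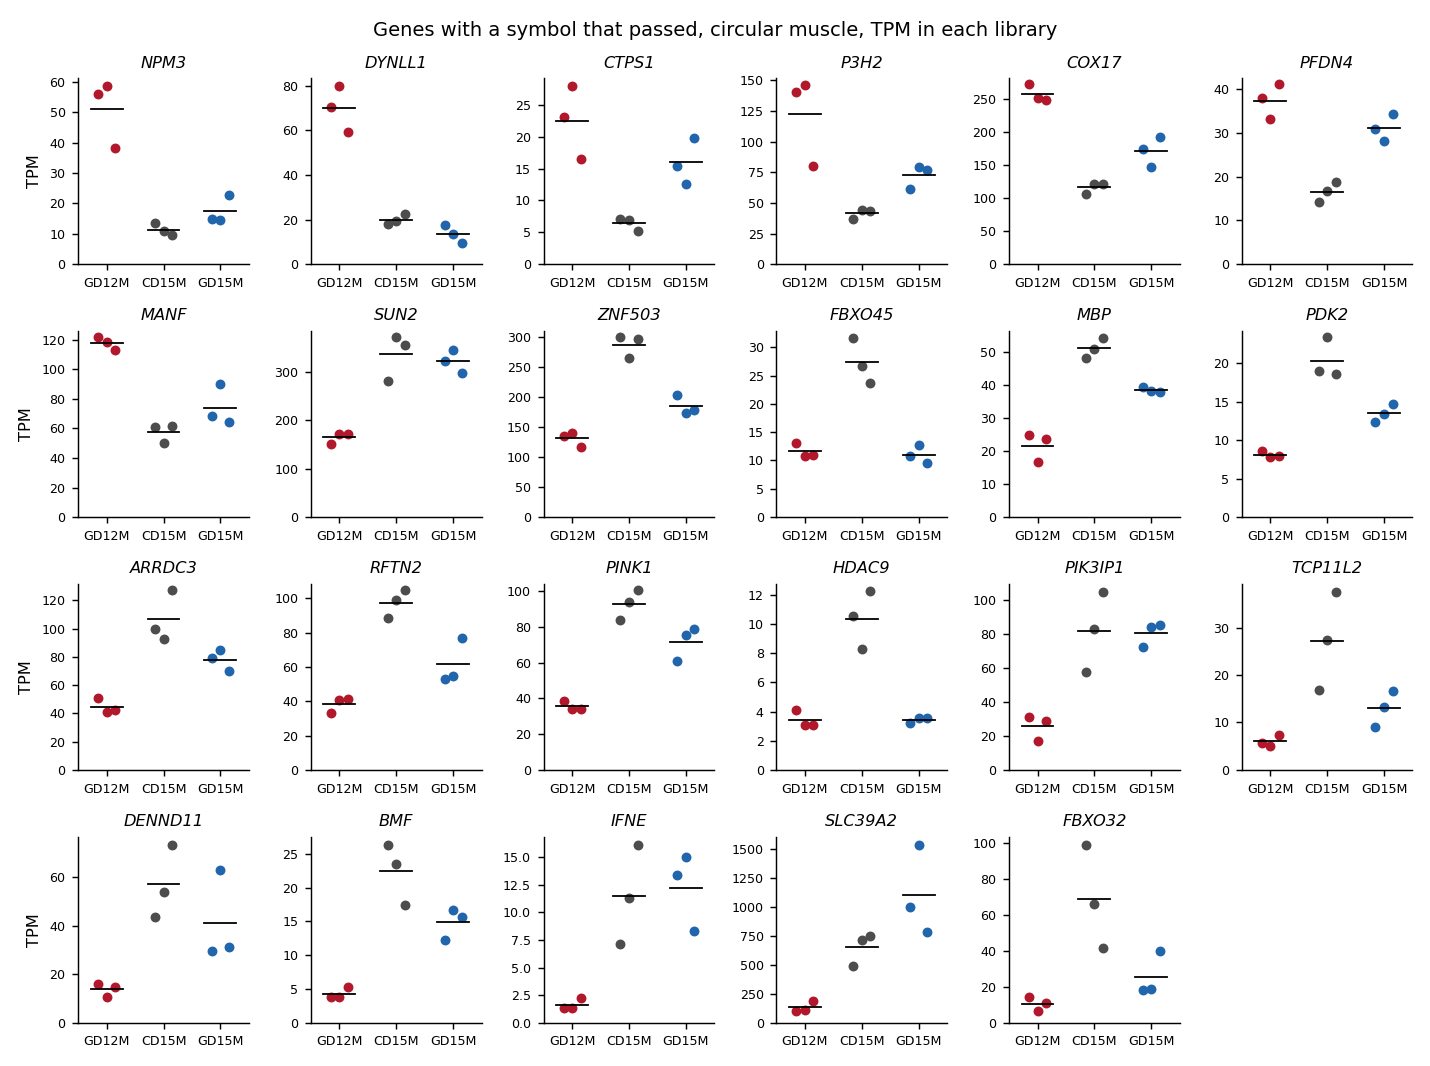
TPM in each CM library for the 23 genes with a symbol that passed, with 1 point per gilt, a line at the group mean and y axes that start at 0. The first 7 panels are genes higher in GD12M_CM (red) than in CD15M_CM (grey) and the other 16 are lower, and GD15M_CM (blue) is shown for reference, with DYNLL1 at 17.4, 13.7 and 9.59 TPM and SLC39A2 at 1003, 1532 and 783 TPM there.

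Of the 35 genes, 12 have no symbol in the gene names used here. The 3 of them among the 5 smallest p were ENSSSCG00000033321 at 126, 135 and 170.3 TPM in GD12M_CM and 449, 375 and 429 TPM in CD15M_CM (-1.54 ± 0.16 (SE), adjusted p = 0.018), ENSSSCG00000007520 at 12.1, 11 and 8.93 TPM in GD12M_CM and 105, 42.8 and 86.8 TPM in CD15M_CM (-2.68 ± 0.30 (SE), adjusted p = 0.018) and ENSSSCG00000018942 at 58.1, 99.7 and 82.5 TPM in GD12M_CM and 16.9, 14.5 and 12.5 TPM in CD15M_CM (2.35 ± 0.25 (SE), adjusted p = 0.018). The first pair was lower and the third higher on day 12 of pregnancy. GD15M_CM was like day 12 for ENSSSCG00000033321, at 134, 129 and 162 TPM, and for ENSSSCG00000007520, at 9.08, 8.6 and 10.6 TPM. Both also passed in CM between day 15 of pregnancy and the cycle (-1.56 and -2.84, adjusted p = 0.016 for both in limma).

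Beyond the genes that passed, the genes of ribosome assembly lay above the bulk of genes on day 12 of pregnancy. Apart from that of the cytosolic ribosome, the lists of this and the next paragraph were chosen after their values were seen, so their counts describe and do not test. Of 61 genes of the nucleolus and ribosome assembly, 26 were higher at an unadjusted p below 0.05 and 1 was lower, where 5.62% of all genes tested were higher and 12.5% lower at that limit. Their median was 0.35 against -0.11 for all genes, and NPM3 alone passed. FBL, the methyltransferase of box C/D particles that modify ribosomal RNA, was at 134, 135 and 118 TPM in GD12M_CM and 85.9, 79.2 and 76.9 TPM in CD15M_CM (0.67, adjusted p = 0.064). RRP9, a protein of the U3 particle that processes ribosomal RNA, was at 50.6, 61.4 and 51.2 TPM in GD12M_CM and 33.2, 30.3 and 28.3 TPM in CD15M_CM (0.81, adjusted p = 0.058). Both had groups without overlap and GD15M_CM in between or overlapping, at 95.4, 83.7 and 99.1 TPM for FBL and 47.2, 46.1 and 42.7 TPM for RRP9. Subunits that import proteins into mitochondria had 6 of 19 higher and 1 lower (median 0.29), among them TIMM17A (0.796, adjusted p = 0.086) and TOMM40 (0.64, adjusted p = 0.095). Mitochondrial ribosomal proteins had 10 of 57 higher and 5 lower (median 0.10). The 37 genes of the cytosolic ribosome itself had 1 higher, RPL37, and 0 lower, with 0 passed, and a median of -0.09.

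The FOXO transcription factors, which act when insulin and growth factor signaling is low, and genes described as their targets lay on the other side. Of 31 such genes, 23 were lower on day 12 of pregnancy at an unadjusted p below 0.05 and 0 were higher. Over all genes tested, 12.5% were lower and 5.62% higher at that limit. A negative difference was found in 30 of the 31, where 61.5% of all genes tested had one, and the median was -1.003. The 5 that passed were BMF, ARRDC3, FBXO32, TCP11L2 and PIK3IP1, described above. The factors themselves gave -0.83, adjusted p = 0.072 for FOXO3, -1.02, adjusted p = 0.087 for FOXO4 and -0.797, adjusted p = 0.15 for FOXO1. The transcription factor gene MXI1, a MYC antagonist, was at 12, 16.5 and 12.1 TPM in GD12M_CM and 35.5, 44.2 and 81.8 TPM in CD15M_CM (-1.84, adjusted p = 0.064), and IRS2, an adaptor of the insulin receptor, at 2.496, 6.37 and 2.71 TPM in GD12M_CM and 9.83, 15.6 and 18.1 TPM in CD15M_CM (-1.72, adjusted p = 0.095). Neither pair of groups overlapped. PDK4, which like PDK2 inhibits pyruvate dehydrogenase, was at 21.6, 22.02 and 33.1 TPM in GD12M_CM and 58.4, 63.2 and 75.9 TPM in CD15M_CM (-1.35, adjusted p = 0.094). Of 37 genes of autophagy and mitophagy, 16 were lower and 0 higher (median -0.40), and PINK1 passed.

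**Figure D3:**
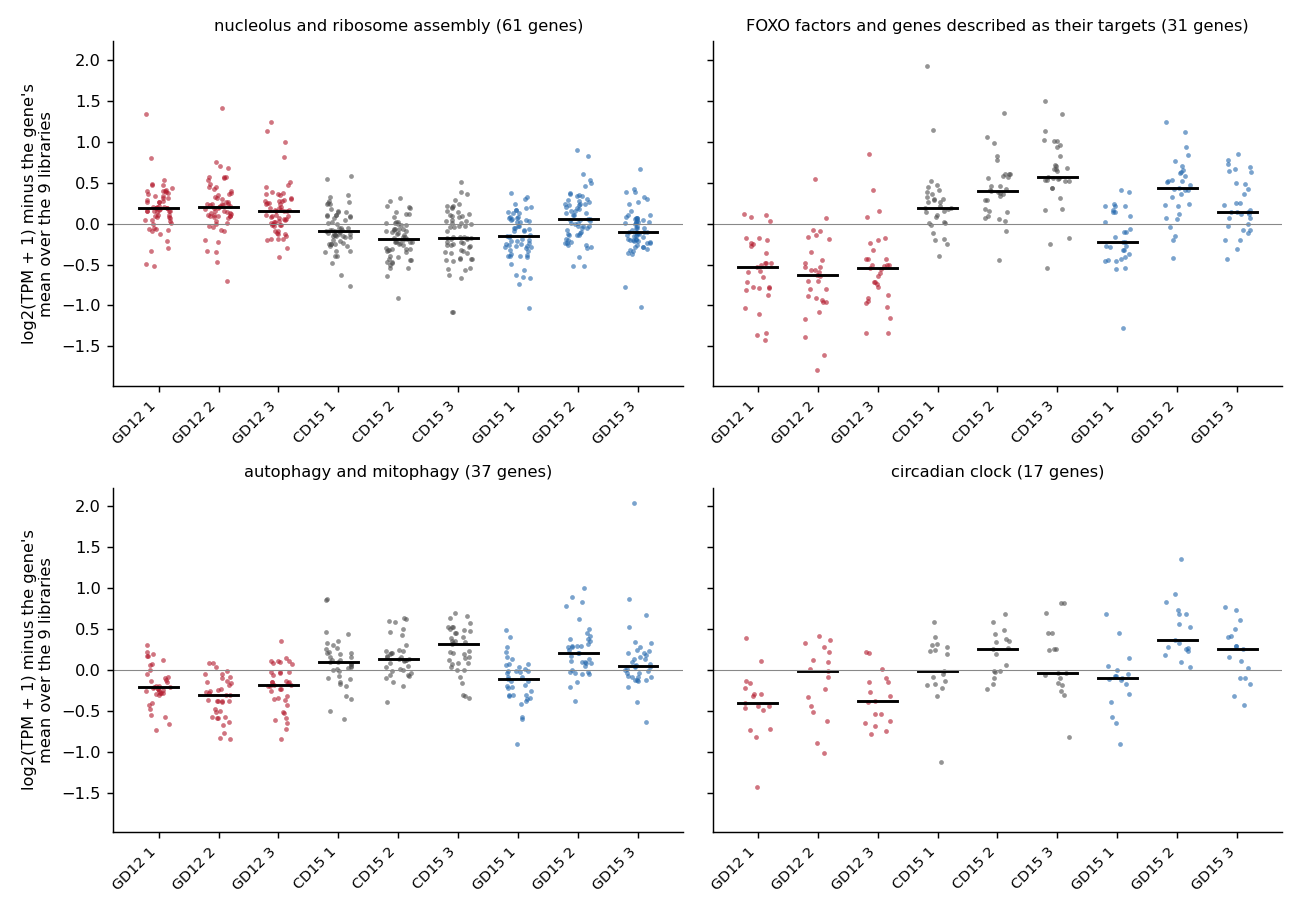
Level of each member of 4 gene lists in the 9 CM libraries, as log2(TPM + 1) minus the mean of the gene over these libraries, with a line at the median of the members. For the FOXO list the medians were -0.53, -0.63 and -0.54 in GD12M_CM, 0.195, 0.402 and 0.57 in CD15M_CM and -0.23, 0.44 and 0.14 in GD15M_CM, and for the nucleolar list the 3 day 12 libraries had the highest medians (0.15 to 0.197). For the clock list the groups overlapped, with -0.013 in GD12M_CM replicate 2 and -0.035 in CD15M_CM replicate 3.

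Differences also moved with the length of the gene in the genome. Among 10968 genes with a RefSeq span, the median was 0.03 in the shortest quartile (up to 12.6 kb), -0.05 in the second, -0.18 in the third and -0.29 in the longest (from 77.1 kb). The nucleolar list has a median span of 13.1 kb against 31.2 kb over all genes. Its 29 members in the shortest quartile had a median of 0.496, its 22 in the second 0.05, its 7 in the third 0.17 and its 2 in the longest 0.205. The FOXO list has a median span of 21.3 kb, and its medians by quartile were -0.601 (12 genes), -1.27 (9 genes), -0.999 (5 genes) and -1.003 (5 genes). The part of gene length in these differences was not tested.

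Clock genes, which drive daily rhythms of transcription, were mostly lower on day 12 of pregnancy, but the list medians of the groups overlapped. Of 17 tested, 12 had a negative difference, where 61.5% of all genes tested had. At an unadjusted p below 0.05, 9 were lower and 1 higher, against 12.5% and 5.62% of all genes tested, the median was -0.56, and 0 passed in limma. TEF, an output factor of the clock, was at 49.01, 60.7 and 56.1 TPM in GD12M_CM and 102, 118 and 84.3 TPM in CD15M_CM (-0.86, adjusted p = 0.091), and the repressor BHLHE41 at 2.67, 6.84 and 4.74 TPM in GD12M_CM and 11.4, 11.7 and 12.5 TPM in CD15M_CM (-1.23, adjusted p = 0.11). DBP, a factor of the same family as TEF, gave -0.896, adjusted p = 0.13, and NPAS2, a partner of BMAL1, was the one with a positive difference at this limit (0.72, adjusted p = 0.12). In GD15M_CM the level of TEF was 89.6, 139.7 and 133 TPM. Medians of the list were taken on log2(TPM + 1) minus the mean of each gene over the CM libraries. They were -0.403, -0.013 and -0.377 in GD12M_CM and -0.015, 0.251 and -0.035 in CD15M_CM. In LM the differences of TEF (0.61) and BHLHE41 (0.53) were positive, without passing for the layer difference in limma (adjusted p = 0.55 and 0.44). The hour of collection is not given in the sources used here, and its part was not tested.

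For the control of contraction, the prostaglandin receptors PTGFR and PTGER3 were at lower levels on day 12 of pregnancy and the contractile proteins near the typical gene, and no gene of either list passed. Of 23 contraction receptors and ion channels, 6 were lower and 2 higher at an unadjusted p below 0.05 (12.5% and 5.62% of all genes tested), with 0 passed and a median of -0.47. Without GD12M_CM replicate 3 these were 3 lower and 4 higher with a median of -0.29, and without CD15M_CM replicate 2 they were 3 and 2 with a median of -0.39. PTGFR, the receptor of prostaglandin F2 alpha, was at 18.4, 14.6 and 15.1 TPM in GD12M_CM and 36.1, 37.98 and 35.7 TPM in CD15M_CM (-1.15, adjusted p = 0.052), and PTGER3, a receptor of prostaglandin E2 that favors contraction, at 37.9, 25.9 and 25.2 TPM in GD12M_CM and 88.1, 88.8 and 65.8 TPM in CD15M_CM (-1.43, adjusted p = 0.074). All 3 day 12 libraries were below all 3 cyclic libraries for both. GD15M_CM overlapped day 12, with 22.2, 14.04 and 16.7 TPM for PTGFR and 22.2, 17.3 and 40.4 TPM for PTGER3. The oxytocin receptor gene OXTR was low throughout, at 2.18, 1.53 and 0.775 TPM in GD12M_CM and 4.22, 2.82 and 4.32 TPM in CD15M_CM (-0.96, adjusted p = 0.16). The calcium-activated chloride channel ANO1 was at 38.5, 70.2 and 29.7 TPM in GD12M_CM and 19.4, 22.2 and 17.3 TPM in CD15M_CM (1.11, adjusted p = 0.11), and PTGIR, the prostacyclin receptor, which favors relaxation, at 3.42, 8.902 and 3.64 TPM in GD12M_CM and 1.84, 2.22 and 0.932 TPM in CD15M_CM (1.17, adjusted p = 0.14). Of 23 contractile apparatus genes, 1 was lower at this limit, PPP1R12A of myosin phosphatase (-1.01, adjusted p = 0.18), and their median was 0.05.

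Among genes of relaxation and hormone response, the relaxin receptor and both corticosteroid receptors were at lower levels on day 12 of pregnancy without passing. Of 22 genes of relaxation and cyclic nucleotide signaling, 7 were lower and 3 higher at an unadjusted p below 0.05, with 0 passed. Over all genes tested, 12.5% were lower and 5.62% higher at that limit, so lower genes were 69% of those called. The same limit holds for the counts that follow. RXFP1, the relaxin receptor, was at 18.1, 18.01 and 16.3 TPM in GD12M_CM and 30.9, 62.3 and 45.5 TPM in CD15M_CM (-1.302, adjusted p = 0.064), without overlap, and PRKG1, the cyclic GMP-dependent kinase, at 14.4, 16.1 and 10.1 TPM in GD12M_CM and 28.1, 37.5 and 22.5 TPM in CD15M_CM (-1.05, adjusted p = 0.11). Of 10 genes of the steroid receptor list, 4 were lower and 0 higher, with the mineralocorticoid receptor NR3C2 at 1.51, 1.39 and 1.39 TPM in GD12M_CM and 4.77, 5.27 and 5.13 TPM in CD15M_CM (-1.32, adjusted p = 0.079) and the glucocorticoid receptor NR3C1 at 12.8, 14.7 and 12.5 TPM in GD12M_CM and 22.5, 23.5 and 23.98 TPM in CD15M_CM (-0.76, adjusted p = 0.086). FKBP5, a co-chaperone of steroid receptors, was also among them (-0.54, adjusted p = 0.15). On day 12 NR3C2 was close to the 1 TPM limit of the filter. Of 9 adrenergic and muscarinic receptors, 2 were lower and 1 higher, namely CHRM3 (-1.01, adjusted p = 0.19), CHRM2 (-0.64, adjusted p = 0.21) and ADRA2C (0.67, adjusted p = 0.13).

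Of 20 genes of growth factors and their receptors, 6 were lower and 0 higher at an unadjusted p below 0.05, where 12.5% and 5.62% of all genes tested were, and 0 passed. PDGFC was at 46.9, 58.4 and 46.9 TPM in GD12M_CM and 94.03, 138 and 115 TPM in CD15M_CM (-1.17, adjusted p = 0.054) and PDGFD at 13.6, 16.7 and 20.2 TPM in GD12M_CM and 43.95, 52.1 and 50.9 TPM in CD15M_CM (-1.497, adjusted p = 0.064), both ligands of platelet-derived growth factor receptors. The growth hormone receptor GHR was at 7.45, 8.73 and 6.1 TPM in GD12M_CM and 18.4, 19.7 and 21.01 TPM in CD15M_CM (-1.31, adjusted p = 0.064). It belongs to the list of the insulin-like growth factor system, of which 3 of 11 were lower and 1 higher. In the Wnt pathway 4 of 22 were lower and 2 higher, and the smallest unadjusted p were those of the secreted modulators SFRP2, at 22.6, 18.8 and 5.56 TPM in GD12M_CM and 54.6, 119 and 52.4 TPM in CD15M_CM (-2.29, adjusted p = 0.072), and DKK2, at 7.39, 8.74 and 6.22 TPM in GD12M_CM and 20.2, 24.9 and 22.8 TPM in CD15M_CM (-1.49, adjusted p = 0.072). WIF1, a secreted Wnt inhibitor, had a positive difference and overlapping groups (1.604, adjusted p = 0.31).

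Some metabolic and matrix genes were at higher levels without passing. ODC1, the first enzyme of polyamine synthesis, was at 688, 448 and 1286 TPM in GD12M_CM and 211, 152 and 118 TPM in CD15M_CM (2.23, adjusted p = 0.059), and GD15M_CM was at 153, 151 and 84.8 TPM. The day 12 libraries were all above the cyclic ones but differed widely among themselves. Its list, polyamine and arginine metabolism, had 2 of 14 higher and 2 lower at an unadjusted p below 0.05. Over all genes tested, 5.62% were higher and 12.5% lower at that limit, which also holds for the counts that follow. The amino acid transporter SLC7A5 was at 134, 49.1 and 138 TPM in GD12M_CM and 41.8, 12.6 and 12.9 TPM in CD15M_CM (2.28, adjusted p = 0.12), and the glutamine transporter SLC38A1 at 163, 147 and 164 TPM in GD12M_CM and 428, 381 and 553 TPM in CD15M_CM (-1.498, adjusted p = 0.08). Of the 19 amino acid and sugar transporters, 1 was higher and 4 were lower at that limit. HK2 was at 13.9, 17.6 and 24.2 TPM in GD12M_CM and 5.58, 2.89 and 1.97 TPM in CD15M_CM and LDHA, lactate dehydrogenase A, at 161, 260.0 and 199 TPM in GD12M_CM and 118, 102 and 110.4 TPM in CD15M_CM (0.88, adjusted p = 0.072), while the glycolysis list as a whole had 3 of 20 higher and 3 lower. Of 26 matrix genes, 3 were higher and 0 lower, namely tenascin C (TNC, 1.81, adjusted p = 0.091), versican (VCAN, 1.27, adjusted p = 0.11) and tenascin XB (TNXB, 1.05, adjusted p = 0.22). Of 16 heat shock genes, 4 were higher and 1 lower, led by HSPA8 at 1003, 1187 and 879.7 TPM in GD12M_CM and 606, 531 and 545 TPM in CD15M_CM (0.86, adjusted p = 0.064). In zinc transport, where SLC39A2 passed, 4 of 12 were lower and 0 higher, and the zinc exporter SLC30A2 was at 39.5, 92.95 and 50.7 TPM in GD12M_CM and 165, 198 and 357 TPM in CD15M_CM (-1.97, adjusted p = 0.11).

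Markers of other cells gave few separations outside the lymphatic and erythrocyte lists. Over all genes tested, 12.5% were lower and 5.62% higher at an unadjusted p below 0.05, the limit of the counts here. Lymphatic endothelium had 4 of 7 lower and 0 higher at an unadjusted p below 0.05 (median -0.77), with the chemokine CCL21 at 74.1, 82.7 and 65.8 TPM in GD12M_CM and 110.1, 151 and 167 TPM in CD15M_CM (-0.92, adjusted p = 0.089) and the lymphatic regulator PROX1 at 2.13, 2.04 and 1.49 TPM in GD12M_CM and 2.65, 5 and 4.37 TPM in CD15M_CM. The summed level of the list was 178 to 216 TPM in GD12M_CM and 243 to 426 TPM in CD15M_CM. Blood vessel endothelium had 2 of 10 lower. In the epithelial list 1 of 12 was lower and 0 passed. The counts of the blood vessel and epithelial lists are near the share of all genes, while that of the lymphatic list is above it. JCHAIN of the plasma cell list, the joining chain of secreted antibodies, was at 32.8, 9.38 and 46 TPM in GD12M_CM and 96.4, 55.8 and 204 TPM in CD15M_CM (-2.03, adjusted p = 0.14). The erythrocyte list had 2 of 3 lower and 0 higher (median -1.38). HBB, a hemoglobin chain, was at 58.3, 124 and 349 TPM in GD12M_CM and 322, 368 and 1200.1 TPM in CD15M_CM (-1.93, adjusted p = 0.19), and the groups overlapped. ALAS2 was at 0.463, 1.48 and 3.56 TPM in GD12M_CM and 3.69, 5.28 and 8.91 TPM in CD15M_CM (-1.38, adjusted p = 0.19), without overlap. Of 23 type I interferon response genes and 6 T cell genes, 0 passed and 0 were at an unadjusted p below 0.05 in limma. The interferon list varied widely within the groups, with sums of 601 to 6044 TPM in GD12M_CM and 601 to 2609 TPM in CD15M_CM. Of the 18 T cell genes in the table only these 6 reached the filter, and all 6 had a negative difference.

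**Figure D4:**
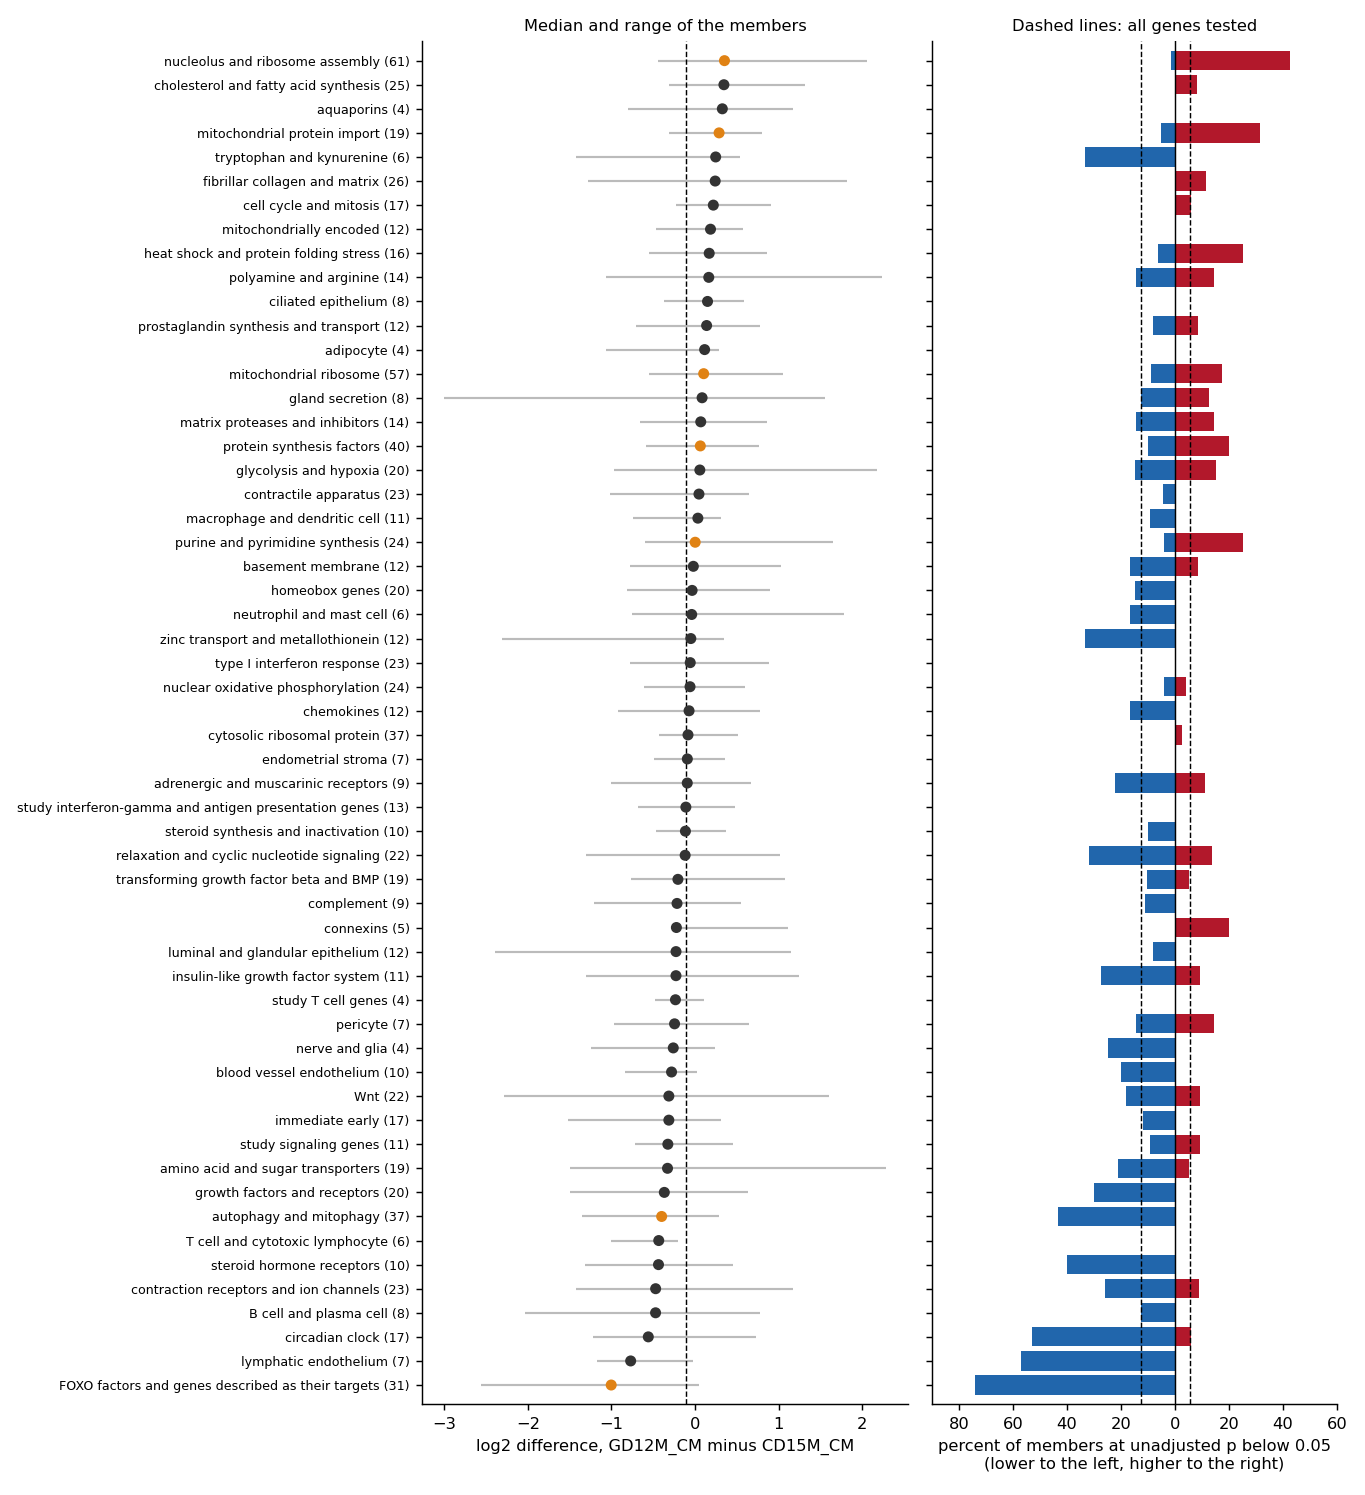
For each gene list with at least 4 genes tested (number in parentheses), the left panel gives the median (point) and range (line) of the log2 differences between GD12M_CM and CD15M_CM, and the right panel the percent of members lower (blue) or higher (red) at an unadjusted p below 0.05. Orange points are the 7 lists chosen after their values were seen, and dashed lines are all genes tested, at -0.11 on the left and at 12.5% and 5.62% on the right.

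The 28 genes tested of those the study names in its signaling, interferon-gamma and antigen presentation, and T cell lists had 0 passed between these groups. In limma, 2 were at an unadjusted p below 0.05, CAMKK2, a calcium-dependent kinase kinase (-0.69, adjusted p = 0.13), and the phospholipase PLCB3 (0.45, adjusted p = 0.26). Over all genes tested, 12.5% were lower and 5.62% higher at that limit. The lists were picked by the study on these samples and are not independent of them. The interferon-regulated gene GBP1 was at 10.48, 3.66 and 4.01 TPM in GD12M_CM and 8.15, 8.03 and 12.5 TPM in CD15M_CM (-0.68, adjusted p = 0.78), and IRF1, a transcription factor of that response, at 42.4, 23.2 and 26.3 TPM in GD12M_CM and 34.4, 31.7 and 49.1 TPM in CD15M_CM (-0.34, adjusted p = 0.84). The groups overlapped for both, and GD15M_CM was at 47.9, 13.8 and 659 TPM for GBP1 and 153, 68.2 and 817 TPM for IRF1. The adrenergic receptor ADRA2A was at 144, 175 and 121 TPM in GD12M_CM and 342, 401 and 38.5 TPM in CD15M_CM (-0.27, adjusted p = 0.88), with 1 cyclic library below and the other 2 above all of day 12. MYH11, given above, had a difference of -0.72, adjusted p = 0.30, and the regulatory light chain gene MYL9 of -0.31, adjusted p = 0.60.

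Whether the difference between day 12 of pregnancy and the cycle was the same in LM was tested on all 18 libraries. None of the 35 genes that passed in CM passed for a difference between the layers. In LM 32 of the 35 had the same sign (91.4%), and 33 without the cyclic LM library of gilt 3, which stood apart from its group, where 69% and 75.1% of all genes tested had. Both layers came from the same gilts, so they are not independent. The 35 were picked for large CM differences and the genes at large were not, so these shares are not like for like. In both layers the day 12 values are stored with fewer digits than the cyclic ones. A difference in processing shared by the layers was not tested. For BMF the LM difference was -1.92, for NPM3 2.21 and for DYNLL1 2.36, all in the direction seen in CM, while ZNF503 (0.05) and SUN2 (0.65) gave values above 0 there, without passing for the layer difference (adjusted p = 0.55 and 0.49). The third gene with the opposite sign was ENSSSCG00000008474, which fell in CM (-1.14) and had an LM difference of 0.66 (unadjusted p = 0.0051 and adjusted p = 0.33 for the layer difference in limma). ENSSSCG00000018942 rose in CM (2.35) with an LM difference of 0.17, and its layer difference was close to the threshold (adjusted p = 0.0597).

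A total of 21 genes (0.147% of those tested) passed for a difference between the layers, 2 with the CM difference above that in LM and 19 below it. The 2 were LRP2, an endocytic receptor of epithelia, and CEBPD, a transcription factor induced in stress. LRP2 was at 6.29, 8.7 and 8.201 TPM in GD12M_CM and 2.04, 1.38 and 1.06 TPM in CD15M_CM and below 1 TPM in all 6 LM libraries of these states. CEBPD had a negative difference in both layers, -0.77 in CM, where the groups overlapped, and -2.54 in LM. It was at 37.3, 74.3 and 39.6 TPM in GD12M_LM and 143, 290 and 547 TPM in CD15M_LM. In CM it was at 80.4, 168 and 85.9 TPM in GD12M_CM and 106, 143 and 385 TPM in CD15M_CM. The 19 were all higher on day 12 of pregnancy than in the cycle in LM, without overlap. Among those with a RefSeq span, SH3GL1 spans 31 kb and UBE2E2 382 kb. The others span 0.297 kb (ND4L) to 9.82 kb (DDA1), against a median of 31.2 kb over all genes. The part of gene length in the layer differences was not tested. RPS29, a ribosomal protein gene, was at 393, 339.6 and 328 TPM in GD12M_LM and 21.1, 23.6 and 89.4 TPM in CD15M_LM, against 458, 338 and 357 TPM in GD12M_CM and 263, 437 and 507 TPM in CD15M_CM. C1QBP, a mitochondrial matrix protein, was at 14.99, 11.15 and 9.795 TPM in GD12M_LM and 1.37, 1.83 and 4.71 TPM in CD15M_LM, and at 18.5, 12.5 and 10.6 TPM in GD12M_CM and 28.2, 30.5 and 31.3 TPM in CD15M_CM. The CM groups of RPS29 overlapped, and its separation lay in the low LM levels of the cyclic gilts. Leaving out the cyclic gilt 3 gave 75 genes, all 21 among them, and leaving out any other gilt gave between 2 and 17.

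**Figure D5:**
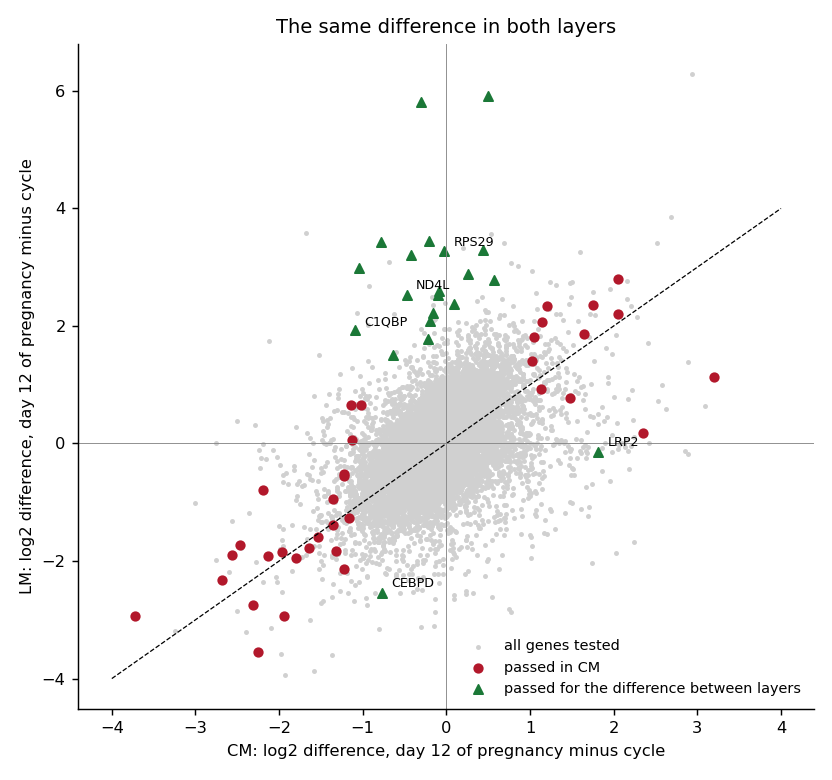
Log2 difference between day 12 of pregnancy and the cycle in CM (x axis) and in LM (y axis) for every gene tested, with the 35 genes that passed in CM as red points, the 21 that passed for the difference between layers as green triangles, and the dashed line where both are equal. Of the red points 32 have the same sign in both layers, and 19 of the triangles lie above the line, with LRP2 and CEBPD below it.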

How the data were processed

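RNA-seq of myometrium from 9 gilts gave 18 libraries, of which the 6 of GD12M_CM and CD15M_CM were compared. The authors sequenced paired reads and used HISAT2 2.1.0 as aligner on the Sscrofa11.1 genome and HTSeq 0.9.1 as counter with an Ensembl annotation, per the labels and the study's methods. The table deposited by the authors holds TPM for 24358 genes, and how TPM was derived from counts is not given in the sources used here. Each library sums to 1000000 TPM, so TPM keeps no read depth and no counting error was attached, and read totals listed by the study outside this table were not used here. The day 12 columns are stored with fewer digits than the others (0.0465% of GD12M_CM values have 12 or more digits against 69.1% in CD15M_CM). In LM the shares were 0.0178% for GD12M_LM and 66% for CD15M_LM. The commonest TPM ratio between 2 of the 6 libraries was shared by 302 to 345 genes between the groups. Within the groups it was shared by 319 to 394. In those genes the value of 1 read kept the same proportions in both groups. They are a small part of all genes, and the ratio cannot show that alignment, counting or sequencing were alike. The stored digits differ together with day 12 of pregnancy, so a difference in processing cannot be told apart from the state.

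Values were analyzed as log2(TPM + 1), a pseudocount of 1, with limma 3.58.1 in R 4.3.3, with empirical Bayes moderation and a variance trend, two-sided, with Benjamini-Hochberg adjustment over all 14314 genes tested (at least 1 TPM in 3 or more of the 6 libraries). The fit held the 9 CM libraries, unpaired, as in the study's comparisons of states. The difference between layers used all 18 libraries and took each gilt as a block. All adjusted p are from these limma fits. The procedure was tested on simulated data. Groups followed the labels, and 0 columns were unused. Symbols matched 14692 genes, and spans and coordinates are those of RefSeq on Sscrofa11.1 matched by symbol.

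Members and the 58 gene lists were chosen with earlier results of these data known. Named genes were those with a symbol and no overlap between groups, the 10 largest differences that passed in each direction, filled to 10 by the smallest p, then up to 4 passing or the 2 smallest p of each list, the genes the study names, and genes without a symbol among the 5 smallest p. The lists of ribosome assembly, mitochondrial ribosome and import, protein synthesis, nucleotide synthesis, FOXO targets and autophagy, and other members named from them or from other lists beyond the rule, were chosen after their values were seen. Some single genes of these lists are not reported here. Alternatives covered the pseudocount, filter, scaling, variance trend, library weights, the libraries fitted, a block, an epithelial covariate and leaving out each library. Plots were drawn with matplotlib 3.10.9.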

Additional observations from a re-analysis of the deposited data

Results flagged for a closer look

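The effect of day 12 of pregnancy against the cycle differed between CM and LM, in the limma test of that difference, for 21 genes. LRP2, CEBPD, RPS29 and C1QBP are given above. One more of the 21 was ND4L, a subunit of respiratory complex I encoded in the mitochondrial genome, with a difference of -3.004 between the CM and the LM effect on the log2 scale (adjusted p = 0.013). In CM it was at 818, 765 and 717 TPM in GD12M_CM and 997, 1437 and 831 TPM in CD15M_CM. In LM it was at 941, 623 and 715 TPM on day 12 of pregnancy and 153, 219 and 62.9 TPM in the cycle. The cyclic LM libraries are thus the low ones, and the third of them stood apart from its group. Leaving out that gilt kept all 21 genes among 75.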

How the results depend on the processing

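The counts of genes that passed depended on the settings. In place of 12 higher and 23 lower genes, CM gave 3 and 6 without a filter, 12 and 15 with median-ratio scaling, 17 and 17 with quantile normalization, 14 and 17 with a pseudocount of 5, 2 and 6 without a variance trend, 181 and 328 with library weights, 29 and 63 from the 6 libraries alone, and 25 and 55 with the epithelial score as a covariate. Leaving out a library gave 0 to 22 higher and 0 to 51 lower. With the replicate number as a block, 0 and 1 passed. At unadjusted p below 0.05 that fit held 772 higher and 1594 lower. Deviations of same-numbered libraries of the 2 groups correlated at 0.12, 0.34 and 0.06, and those of differently numbered ones at -0.26 to 0.18. So few correlations cannot settle whether the number marks something shared between the groups. For the difference between layers the 21 genes became 13 with median-ratio scaling and 715 with library weights. Without replicate 1, 2 or 3 of day 12 of pregnancy they became 2, 14 and 4, without those of day 15 of pregnancy 17, 17 and 10, and without those of the cycle 7, 4 and 75. The causes were not tested.

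Over all alternatives, the nucleolar list held 21 to 34 genes higher and 0 to 2 lower at an unadjusted p below 0.05, the FOXO list 0 higher and 20 to 24 lower, the autophagy list 0 to 2 and 10 to 19, the clock list 1 to 2 and 6 to 11, contraction receptors and channels 1 to 4 and 3 to 8, growth factors and receptors 0 to 2 and 3 to 7, and relaxation genes 1 to 5 and 4 to 7. The ranges of the nucleolar, FOXO and autophagy lists describe and do not test, since these lists were chosen after their values were seen. The matrix list had a median between -0.09 and 0.43. Without counts, small differences of genes near 1 TPM cannot be judged.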

Other observations

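Genes of cholesterol and fatty acid synthesis were mostly at higher levels on day 12 of pregnancy. Of 25 tested, 21 had a positive difference, where 38.5% of all genes tested had, and the median was 0.34. At an unadjusted p below 0.05, 2 were higher and 0 lower (5.62% and 12.5% of all genes tested), and 0 passed in limma. Without CD15M_CM replicate 2 the median was 0.13 and without CD15M_CM replicate 1 it was 0.576. The desaturase SCD was at 83.9, 65.9 and 71.4 TPM in GD12M_CM and 60.4, 16.9 and 23.4 TPM in CD15M_CM. Of 17 cell cycle genes, 13 had a positive difference, and MCM2, of the replicative helicase, was the one at that limit. Of 17 immediate early genes, 2 were lower and 0 higher at that limit, a share close to that of all genes (12.5%). They were EGR1 (-1.32) and FOS (-1.52) (adjusted p = 0.15 for both in limma), with EGR1 at 13.8, 54.4 and 27.98 TPM in GD12M_CM and 90.8, 68.7 and 57.4 TPM in CD15M_CM.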
